A study of Homo sapiens with 4 samples.

Results

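The ID proteins and the E proteins are the genes described here, 7 of the 20348 genes in the deposited count table: ID1, ID2, ID3 and ID4 on one side, and TCF3, TCF4 and TCF12 on the other. They were found by Ensembl identifier and each matched 1 row. They were chosen by their CPM in the 4 libraries, periplocin against DMSO in each cell line, so their levels and ratios are a description with no test. K562 is an established human leukemia line of chronic myeloid origin that can take on erythroid features, and THP-1 is an established human line of acute monocytic leukemia. For each line, 1 library came from cells given DMSO, the solvent control that the sample titles call blank, and 1 from cells given 100 nM periplocin, a cardiac glycoside from plant bark, both for 72 h. The 4 groups thus hold 1 library each, K562 DMSO, K562 periplocin, THP-1 DMSO and THP-1 periplocin, all from unsorted cell line cultures. Spread between replicates cannot be estimated from them, so every interval below is a 95% counting interval that covers counting error and compares libraries, not conditions.

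E proteins are basic helix-loop-helix transcription factors. They bind DNA as dimers at short motifs called E-boxes, either with each other or with tissue-restricted partners such as TAL1, which has this role in erythroid cells. TCF3 encodes E12 and E47, TCF4 encodes E2-2 and TCF12 encodes HEB. ID proteins carry the helix-loop-helix but lack the basic region that touches DNA, so an E protein paired with an ID protein cannot bind its motif. ID genes are classical targets of bone morphogenetic protein (BMP) signalling through SMAD proteins, and the balance of ID and E proteins is known to steer lineage choice in blood cells.

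Promoter sequence is shown for ID2 and TCF3, whose ratios of periplocin to DMSO are described first below, and for ID1, the ID gene with the highest level in K562 DMSO, as a comparison for ID2. The stretches are RefSeq sequence of GRCh38.p14, written 5′ to 3′ on the strand of the gene upstream of its RefSeq start site, each ended within a few bases of the first annotated exon it meets. Capitals mark E-boxes (CANNTG), CCAAT boxes and TATA boxes (TATAAA), each on either strand. The ID2 stretch is chr2:8681806-8681865 on the plus strand, the ID1 stretch is chr20:31605039-31605288 on the plus strand, and the TCF3 stretch is chr19:1652616-1652865 on the minus strand. The ID2 stretch covers bases 250 to 191 before that start site and lies inside the annotated span of ID2, which has exons farther upstream.
ID2: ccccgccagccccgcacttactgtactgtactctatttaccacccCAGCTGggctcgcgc
ID1: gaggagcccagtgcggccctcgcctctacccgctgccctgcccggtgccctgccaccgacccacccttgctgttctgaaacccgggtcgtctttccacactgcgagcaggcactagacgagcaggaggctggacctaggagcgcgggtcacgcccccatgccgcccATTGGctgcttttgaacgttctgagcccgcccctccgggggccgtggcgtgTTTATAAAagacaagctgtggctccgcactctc
TCF3: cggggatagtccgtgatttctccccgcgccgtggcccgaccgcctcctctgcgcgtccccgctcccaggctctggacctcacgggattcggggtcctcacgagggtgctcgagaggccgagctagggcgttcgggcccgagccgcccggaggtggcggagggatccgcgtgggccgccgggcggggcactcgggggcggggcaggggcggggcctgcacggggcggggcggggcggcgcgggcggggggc

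The 250 bases upstream of the RefSeq start site of ID2 held 1 E-box, of the form CAGCTG, whose first base lay 205 bases before the start. The motif CANNTG was present in 61.8% of 35116 promoter windows of this length and the form CAGCTG in 14.0%. The ID1, ID3 and TCF3 windows held no CANNTG match, and the TCF3 window no CCAAT or TATAAA match. ID2 also had CCAAT boxes, found in 32.0% of windows, at 172, 122 and 78 bases before the start, beyond the stretch shown. The stretch ends just inside an annotated exon of ID2, whose start lies within the E-box. The CCAAT boxes of ID2 thus lie past the start of that exon. ID1 had 1 CCAAT box, at 84 bases. ID1 had overlapping TATAAA matches on the opposite strands at 33 and 31 bases before the start, a motif in 10.7% of windows. The GC-rich SMAD motif GGCGCC, present in 16.4% of windows, and a separate, palindromic SMAD motif, GTCTAGAC, present in 0.182%, were not in the windows of the 4 ID genes, which says nothing of sites farther away. The G and C content was 69.2% for ID2, 66.0% for ID1 and 79.6% for TCF3, against a median of 58.0% over all windows.

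ID2 had a far higher level in the periplocin library of K562 and close levels in both THP-1 libraries. TCF3 was above its DMSO level in periplocin in K562 and below it in THP-1. ID1 and ID3 were K562 genes in these data, with 25 counts or fewer in each THP-1 library. Of the 7 genes, 6 passed a filter of a mean of at least 1 CPM in K562 and 4 passed in THP-1, where CPM is the count scaled to library size, with sizes adjusted by the trimmed mean of M values (TMM) over the 4 libraries. A gene was called when its ratio was at least 2-fold and its counting interval left out no change. In K562 1 of the 6 was called, ID2, and it was higher in periplocin. Of the 11814 genes that passed there 20.3% were called, 8.85% higher and 11.4% lower. In THP-1 0 of the 4 were called, against 18.8% of 12393 genes, 8.06% higher and 10.7% lower. The choice of members used these ratios, so nothing is read from these counts.

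**Figure D1:**
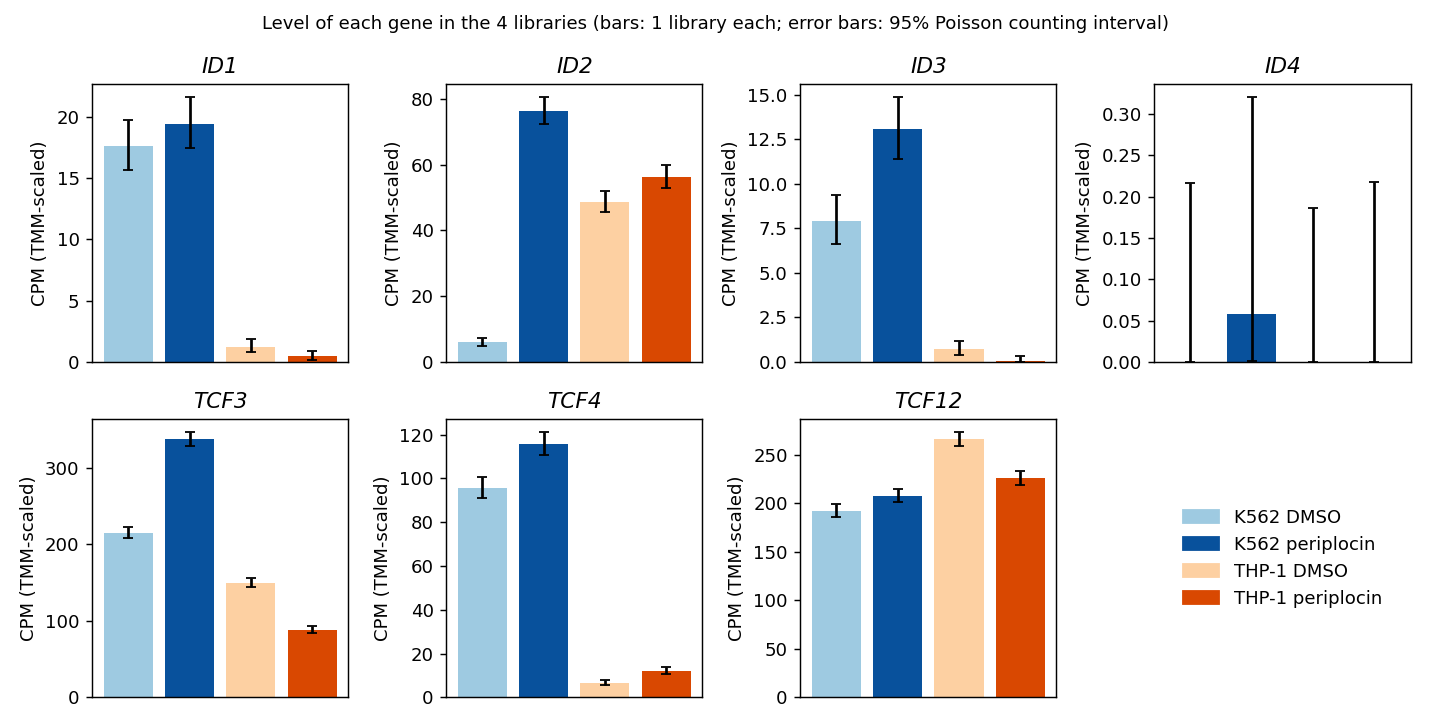
Level of each gene in TMM-scaled CPM in the 4 libraries, 1 bar per library, on a linear axis of its own for each gene. Error bars are 95% Poisson counting intervals. ID2 reaches 76.3 CPM in K562 periplocin from 5.98 CPM in K562 DMSO, while ID1, ID3 and TCF4 are low in both THP-1 libraries.

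ID2 (ENSG00000115738), which pairs with E proteins and is also known to bind the retinoblastoma protein, lies on chromosome 2 from 8678845 to 8684453 of GRCh38 on the plus strand in GENCODE release 29. Its counts in K562 were 102 with DMSO and 1327 with periplocin, and in THP-1 they were 962 and 953. In CPM these were 5.98, 76.3, 48.7 and 56.3, so K562 DMSO stood below the other 3 libraries. The K562 ratio was 12.8-fold, a log2 ratio of 3.68 (95% counting interval 3.38 to 3.98), and ranked 59 from the highest of 11814 genes. The THP-1 ratio was 1.16-fold, a log2 ratio of 0.21 (0.08 to 0.34), inside the central 50% of all genes there, which spanned -0.49 to 0.39. The antisense gene ID2-AS1 overlaps the span of ID2 by 3019 bp and has no row in the table. This overlap was measured over the whole span, introns included, and not over exons. No source states that the counting used strand, so any reads of ID2-AS1 that fall in ID2 exons cannot be told apart.

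Erythroid genes were also higher in K562 periplocin. Of 6 erythroid markers, 5 were called higher in K562 periplocin, beside 8.85% of all genes. The 6 summed to 1747 CPM in DMSO and 6983 CPM in periplocin. The sixth, GATA1, had a log2 ratio of 0.84. In THP-1 the summed level of these markers was 3.09 and 1.71 CPM. Their part in the ID2 value was not tested. In bulk RNA a change in the number of cells of one state and a change of RNA per cell cannot be told apart.

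ID1 (ENSG00000125968), the family member on which BMP responses are most often read, lies on chromosome 20 from 31605283 to 31606515 on the plus strand. K562 had 301 counts with DMSO and 338 with periplocin, and THP-1 had 25 and 8, or 17.6, 19.4, 1.27 and 0.473 CPM. Both K562 libraries thus stood above both THP-1 libraries. In K562 the log2 ratio was 0.14 (-0.09 to 0.37), which includes no change. In THP-1 it was -1.42 (-2.78 to -0.23), on counts too low to pass the filter.

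ID3 (ENSG00000117318), which is known for its roles in lymphocyte development, lies on chromosome 1 from 23557918 to 23559794 on the minus strand. K562 had 135 counts with DMSO and 227 with periplocin, while THP-1 had 14 and 1. In CPM these were 7.91, 13.1, 0.709 and 0.0591, highest in K562 periplocin. The K562 log2 ratio was 0.72 (0.41 to 1.04), a 1.65-fold difference that stayed under 2-fold. The THP-1 log2 ratio was -3.58 with an interval from -8.99 to -0.87, which leaves its size nearly undetermined, and it too was under the filter. The single count is below the floor of 3 counts, and with a prior count of 2 the log2 ratio was -2.28.

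ID4 (ENSG00000172201), a member with prominent roles in the nervous system, lies on chromosome 6 from 19837386 to 19840684 on the plus strand. It had 0 counts in K562 DMSO and in both THP-1 libraries and 1 count in K562 periplocin. A count of 0 allows up to 3 counts, which is 0.176 CPM in K562 DMSO and 0.152 and 0.177 CPM in the THP-1 libraries. ID4 was therefore not detectable at this depth, and no ratio is given.

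Among the E protein genes, TCF3 had the widest gap between the responses of the lines. TCF3 (ENSG00000071564) lies on chromosome 19 from 1609290 to 1652605 on the minus strand, with 20 annotated transcripts. K562 had 3673 counts with DMSO and 5874 with periplocin, and THP-1 had 2968 and 1499, or 215, 338, 150.2 and 88.6 CPM. K562 periplocin was the highest library and THP-1 periplocin the lowest, with the DMSO libraries in between. The K562 ratio was 1.57-fold, a log2 ratio of 0.65 (0.59 to 0.71), at percentile 83.0 of all genes. In THP-1 the DMSO level was 1.70 times the periplocin level, a log2 ratio of -0.76 (-0.85 to -0.67), at percentile 15.9.

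TCF12 (ENSG00000140262), an E protein with known roles in T cell and neural development, lies on chromosome 15 from 56918623 to 57299281 on the plus strand, with 28 annotated transcripts. K562 had 3287 counts with DMSO and 3618 with periplocin, and THP-1 had 5257 and 3835. Its levels of 193, 208, 266 and 227 CPM were the most even of the 6 genes with counts in every library. The log2 ratios were 0.11 (0.04 to 0.18) in K562 and -0.23 (-0.29 to -0.17) in THP-1, both inside the central 50% of all genes.

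TCF4 (ENSG00000196628), the E protein that plasmacytoid dendritic cells depend on, lies on chromosome 18 from 55222331 to 55664787 on the minus strand, with 90 annotated transcripts. K562 had 1635 counts with DMSO and 2014 with periplocin, and THP-1 had 131 and 207, or 95.8, 116, 6.63 and 12.2 CPM. Both K562 libraries stood far above both THP-1 libraries. The K562 log2 ratio was 0.27 (0.18 to 0.37). The THP-1 log2 ratio was 0.88 (0.56 to 1.21), a 1.85-fold difference and the highest of the E protein genes in either line. The antisense genes TCF4-AS1 and TCF4-AS2 overlap the span of TCF4 by 30408 and 4218 bp, and an RPL21 pseudogene, RPL21P126, lies there on the opposite strand over 478 bp. They have no rows in the table, and as for ID2 any of their reads that fall in TCF4 exons cannot be told apart. Here too the overlap was measured over the whole span, introns included. The spans of TCF12 and TCF3 also hold genes without rows in the table. These include the pseudogene HNRNPA3P11 on the opposite strand of TCF12 over 934 bp. In TCF3 the small nuclear RNA gene RNU6-1223P lies on the same strand over 104 bp. The values are per gene, so they do not separate E12 from E47 or the other forms of the E protein genes.

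**Figure D2:**
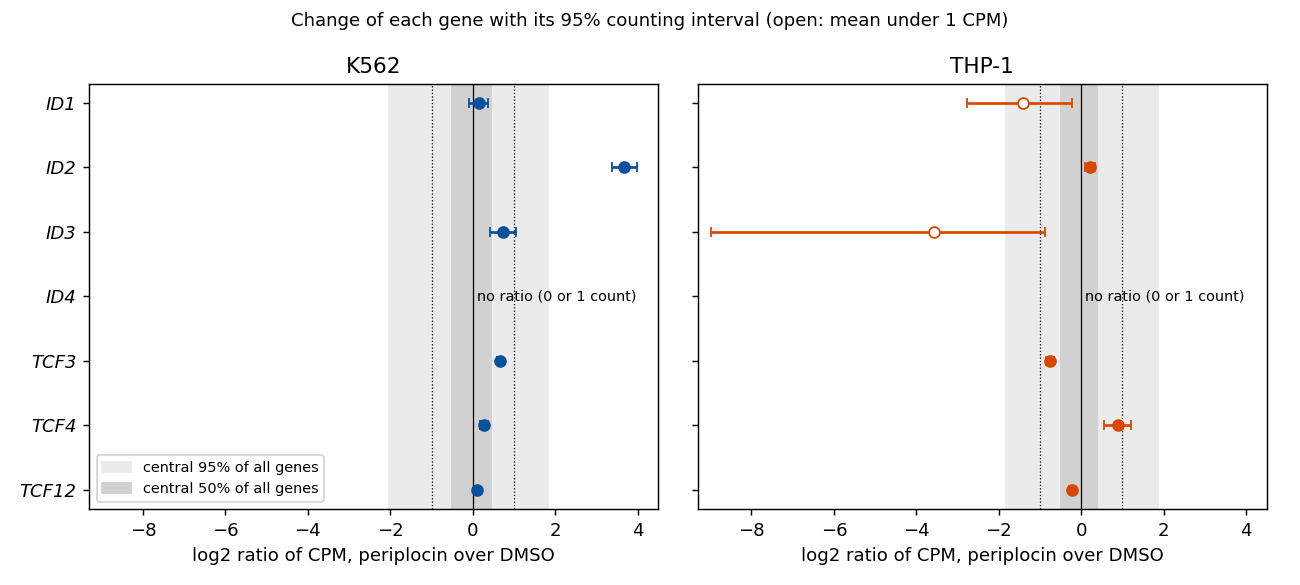
Log2 ratio of periplocin to DMSO for each gene in K562 and THP-1 with its 95% counting interval. Open points have a mean under 1 CPM, dotted lines mark 2-fold, and the grey bands hold the central 50% and 95% of all genes that passed the filter. In K562 ID2 lies at 3.68, outside the central 95% (-2.03 to 1.83), and the other genes with a ratio lie inside it.

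The responses of the lines were also set side by side. The THP-1 log2 ratio minus the K562 log2 ratio was -3.46 for ID2, with a counting interval of -3.78 to -3.15. For TCF3 it was -1.41 (-1.52 to -1.31), for TCF12 -0.34 (-0.43 to -0.25) and for TCF4 0.61 (0.28 to 0.94). For ID1 it was -1.56 (-2.73 to -0.39), and for ID3 -4.31 (-7.25 to -1.36). TCF4 was thus the only gene of these 6 with the larger log2 ratio in THP-1. The intervals for ID1 and ID3 are normal approximations on low THP-1 counts and are too narrow. The exact intervals of their THP-1 ratios alone are wider, -2.78 to -0.23 for ID1 and -8.99 to -0.87 for ID3. With 1 library per condition these differences between lines were not tested.

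**Figure D3:**
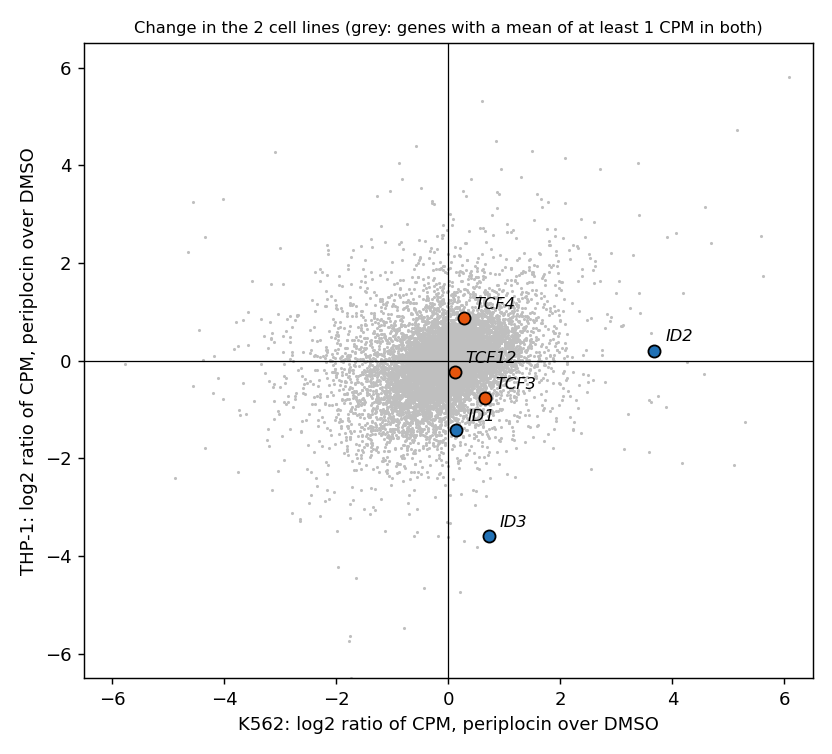
Log2 ratio of periplocin to DMSO in K562 (x axis) and THP-1 (y axis). Grey points are genes that passed the filter in both lines, blue points are ID genes and orange points are E protein genes. ID2 lies far to the right near 0 on the THP-1 axis, and TCF3, TCF12, ID1 and ID3 lie right of 0 and under it.

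Without periplocin the lines already differed in these genes. Between the DMSO libraries 4 of the 6 genes that passed were called, 1 higher and 3 lower in THP-1, where 43.9% of 12849 genes were called, 22.9% higher and 21.1% lower. ID2 was 8.15 times as high in THP-1 as in K562 (log2 ratio 3.03, 2.73 to 3.34). ID1, ID3 and TCF4 were higher in K562, by 13.9-fold, 11.2-fold and 14.4-fold. TCF3 and TCF12 were closer, with log2 ratios of THP-1 to K562 of -0.52 (-0.59 to -0.45) and 0.47 (0.40 to 0.53). The level of ID2 in K562 periplocin, 76.3 CPM, was above both THP-1 libraries.

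Levels of different genes were compared per kilobase of merged exons. In K562 DMSO the order was TCF3 at 35.4 CPM per kilobase, TCF12 at 20.4, ID1 at 14.3, ID3 at 4.40, TCF4 at 3.44 and ID2 at 2.71. The counting intervals of TCF4 and ID2 overlapped, and those of the other neighbours did not. In K562 periplocin ID2 stood second at 34.6 CPM per kilobase, between TCF3 at 55.6 and TCF12 at 22.0.

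In THP-1 DMSO the order was TCF12 at 28.2 CPM per kilobase, TCF3 at 24.7 and ID2 at 22.1, with ID1, ID3 and TCF4 at 1.03 or under. In THP-1 periplocin ID2 at 25.5 and TCF12 at 24.0 had overlapping intervals, above TCF3 at 14.6. TCF4 is the gene whose place depends most on its length, since its merged exons span 27828 bp and its longest transcript 8343 bp. Per kilobase of longest transcript it stood at 11.5 in K562 DMSO, above ID3. The order of ID2 and TCF12 in THP-1 periplocin also depends on length. Per kilobase of longest transcript TCF12 stood there at 37.4, above ID2 at 27.6.

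Summed per kilobase, the ID genes took a larger part of the ID and E protein total in periplocin than in DMSO in both lines. In K562 the ID part was 26.6% in DMSO and 41.4% in periplocin, and the ID sum was 21.4 and 57.7 CPM per kilobase. The E protein sum there was 59.2 and 81.8. In THP-1 the ID part was 30.7% in DMSO and 40.0% in periplocin, with ID sums of 23.5 and 26.0 and E protein sums of 53.1 and 39.0. The shift in K562 thus came with higher sums on both sides, and the shift in THP-1 with a lower E protein sum.

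The make-up of the sums differed as well. In K562 ID1 made up 66.8% of the ID sum in DMSO, and ID2 made up 60.0% of it in periplocin. In THP-1 ID2 made up 94.0% and 98.4%. TCF3 made up 59.8% and 68.0% of the E protein sum in K562, against 46.5% and 37.4% in THP-1. Per kilobase of longest transcript the ID parts were lower, 20.5% and 33.9% for K562 and 24.5% and 32.3% for THP-1, with periplocin above DMSO in each line. These sums are of RNA and give no protein level.

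**Figure D4:**
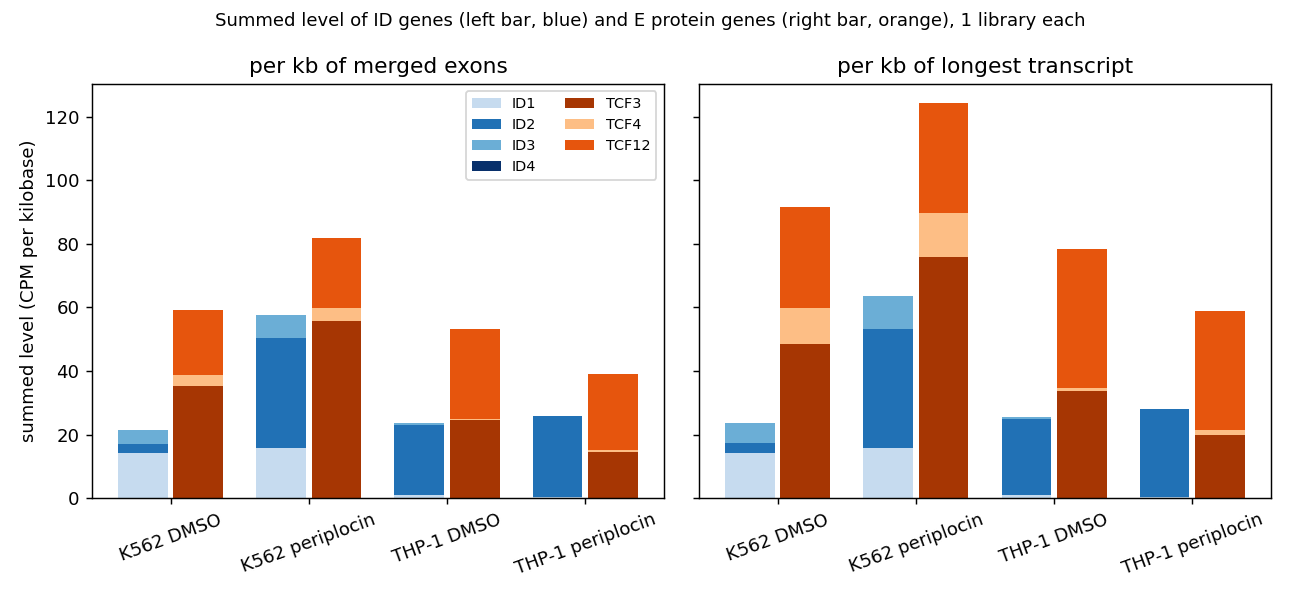
Summed level in CPM per kilobase of the ID genes (left bar of each pair, blue) and the E protein genes (right bar, orange) in the 4 libraries, by merged exon length and by longest transcript. The bars are single libraries without error bars. ID2 fills most of the ID bar in every library except K562 DMSO, where ID1 does.

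Counts were also summed without gene length, with ratios of TMM-scaled CPM. The 4 ID genes together had 538 counts in K562 DMSO and 1893 in K562 periplocin, a log2 ratio of 1.79 (1.65 to 1.93). The E protein genes together had 8595 and 11506, a log2 ratio of 0.39 (0.35 to 0.43). In THP-1 the ID genes had 1001 and 962 counts, or 50.7 and 56.9 CPM (0.17, 0.04 to 0.30). The E protein genes had 8356 and 5541 counts there (-0.37, -0.42 to -0.32).

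E proteins work with partners. Calls in this and the following lists stand beside 20.3% of all genes called in K562 and 18.8% in THP-1. No set test was run, and nothing particular to a list is read from its counts. Of 18 class II basic helix-loop-helix genes 5 passed the filter in each line. In K562 1 of the 5 was called higher and 3 lower, with a median log2 ratio of -1.27, against a median of -0.01 over all genes. The gene called higher was TAL1, the partner of E proteins in erythroid cells, with 3350 counts in DMSO and 7895 in periplocin (log2 ratio 1.21, 1.15 to 1.27). In THP-1 TAL1 had 10 and 2 counts. There 2 of the 5 were called higher and 0 lower (median 0.16, against -0.03 over all genes). LYL1, a relative of TAL1 chosen after its values were seen, had K562 counts of 1634 and 1948 and THP-1 counts of 684 and 472, and was called in neither.

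Of 9 LMO, LDB1 and SSBP genes, which bridge TAL1 and E protein dimers to other factors, 6 passed in each line. In K562 1 was called, LDB1, the scaffold of the complex, with 2589 counts in DMSO and 7268 in periplocin (1.46, 1.40 to 1.53), and in THP-1 0 were called. The list medians were -0.11 in K562 and 0.53 in THP-1. LMO2, chosen after its values were seen, had log2 ratios of 0.37 in K562 and 0.23 in THP-1. Among 7 corepressors and coactivators of E proteins 6 passed in each line and 1 was called in each, with medians of 0.13 and 0.23. Over all genes 20.3% were called in K562 and 18.8% in THP-1. In K562 the called cofactor was the acetyltransferase KAT2B, higher with 1362 and 3586 counts (1.37, 1.28 to 1.46). In THP-1 it was KAT2A, lower with 1516 and 411 counts (-1.66, -1.82 to -1.50).

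The BMP pathway lies upstream of the ID genes. As a background, 20.3% of all genes were called in K562 and 18.8% in THP-1, with 8.06% higher in THP-1. Of 11 ligands and antagonists 4 passed in each line. In K562 1 was called, GDF2, the ligand BMP9, with 79 counts in DMSO and 285 in periplocin (1.82, 1.46 to 2.20), and in THP-1 0 were called, with medians of 0.88 and 0.02. Of 9 receptor genes 8 passed in K562 and 0 were called higher and 2 lower (median -0.08), while 7 passed in THP-1 and 4 were called higher and 0 lower (median 1.13).

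The receptor genes called in THP-1 were ACVR2A, ENG, ACVRL1 and ACVR1. ENG, the co-receptor endoglin, had 2003 counts in DMSO and 4092 in periplocin (1.25, 1.18 to 1.33), and ACVRL1, the receptor ALK1, had 213 and 414 (1.18, 0.94 to 1.43). ACVR1 had 227 and 424 counts and ACVR2A 68 and 174. In K562 BAMBI, a pseudoreceptor that dampens the signal, was called lower with 324 and 140 counts (-1.24, -1.53 to -0.95). Of the ID genes, known targets of this pathway, ID1 and ID3 had the low THP-1 counts given above, and ID2 had 962 and 953. A link between the receptor and ID levels was not tested.

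Of 10 SMAD and SMURF genes 9 passed in K562, with 1 called higher and 2 lower (median 0.00). In THP-1 10 passed, with 0 called higher and 1 lower (median 0.05). The shares called over all genes were 20.3% in K562 and 18.8% in THP-1. SMAD7, an inhibitory SMAD and itself a target of the pathway, had 124 counts in K562 DMSO and 51 in K562 periplocin (-1.31, -1.81 to -0.83). Of 6 TGF-beta ligand and receptor genes 5 passed in each line. In THP-1 4 were called higher and 1 lower (median 1.09), the higher ones being TGFBR2, TGFBR3, TGFBR1 and TGFB1 with log2 ratios from 1.05 to 1.29. In K562 2 were called higher and 0 lower, with a median of 0.76.

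Direct regulators of ID transcription were listed as 7 genes. All 7 passed in K562, where 0 were called higher and 4 lower (median -1.10). In THP-1 6 passed, with 1 called higher and 2 lower (median -0.14). Among all genes 11.4% were called lower in K562 and 10.7% in THP-1. EGR1, an immediate early factor, had 2182 counts in K562 DMSO and 467 in K562 periplocin (-2.25, -2.40 to -2.11), and 339 and 130 in THP-1 (-1.16, -1.46 to -0.86). STAT5A had 12851 and 3800 counts in K562 (-1.78, -1.84 to -1.73), and ATF3, a repressor of ID1, had 953 and 348 (-1.48, -1.66 to -1.30). In THP-1 MYC had 5889 and 1024 counts (-2.30, -2.40 to -2.20). Of 6 genes for the turnover of ID proteins, which include the deubiquitinase USP1, all 6 passed in each line and 0 were called (medians 0.06 and -0.04).

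Of 11 other repressors that bind E-boxes or related motifs 10 passed in K562, with 3 called higher and 2 lower (median 0.09). In THP-1 6 passed, with 1 called higher (median 0.24). All genes had 20.3% called in K562 and 18.8% in THP-1. SNAI1 had 67 counts in K562 DMSO and 251 in K562 periplocin (1.88, 1.48 to 2.29), and HES1, a Notch target, had 701 and 257 (-1.47, -1.69 to -1.27). In THP-1 BHLHE40 had 312 and 979 (1.87, 1.69 to 2.06).

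TCF4 had the 1.85-fold ratio in THP-1 given above, and 8 genes linked to it in plasmacytoid dendritic cells were set beside it. In THP-1 6 of the 8 passed, 0 were called higher and 4 lower, and the median was -1.27. Called lower were 10.7% of all genes in THP-1 and 11.4% in K562. IRF8, a factor that THP-1 shares with monocytes, had 12161 counts in DMSO and 4323 in periplocin (-1.27, -1.32 to -1.22), and RUNX2 had 7363 and 2605 (-1.28, -1.34 to -1.21). BCL11A had 255 and 49 counts and CIITA, the master regulator of MHC class II genes, had 244 and 81. In K562 2 of the 8 passed and 1 was called lower (median -0.81). Of 14 lymphoid genes linked to E proteins 2 passed in K562 and 0 were called, and 6 passed in THP-1 with 1 called lower (medians -0.19 and -0.17).

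The called genes of these lists with a mean under 5 CPM were added after their values were seen. Among partners of E proteins, BHLHA15, a secretory cell factor, had 109 counts in K562 DMSO and 16 in K562 periplocin (-2.79, -3.65 to -2.03), and ASCL2 and NHLH1 were the others called lower there. NHLH1 was called in the opposite direction in THP-1, with 7 and 62 counts (3.37, 2.24 to 4.74), and MSC was the other gene called higher in that line. In the BMP pathway ACVRL1 had 50 and 15 counts in K562 (-1.76, -2.70 to -0.91), on the other side of 0 from its THP-1 value.

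Among SMAD genes SMAD1, which carries the BMP signal to the ID genes, had 105 and 52 counts in K562 (-1.04, -1.55 to -0.55), and SMAD6, an inhibitory SMAD, had 30 and 83 (1.44, 0.82 to 2.10). SMAD9 was the SMAD gene called lower in THP-1. The TGF-beta genes called higher in K562 were TGFB2 and TGFB3, with 39 counts or fewer in each library, and TGFB3 was the one called lower in THP-1. ATF3 had 28 and 100 counts in THP-1 (2.06, 1.44 to 2.72), opposite in direction to K562, and GFI1 was the fourth regulator called lower in K562. The remaining called genes were SNAI3 and BHLHE41, higher, and HEY1 and CIITA, lower, in K562, and BLNK, lower, in THP-1. Differences between the lines in these genes were not tested.

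**Figure D5:**
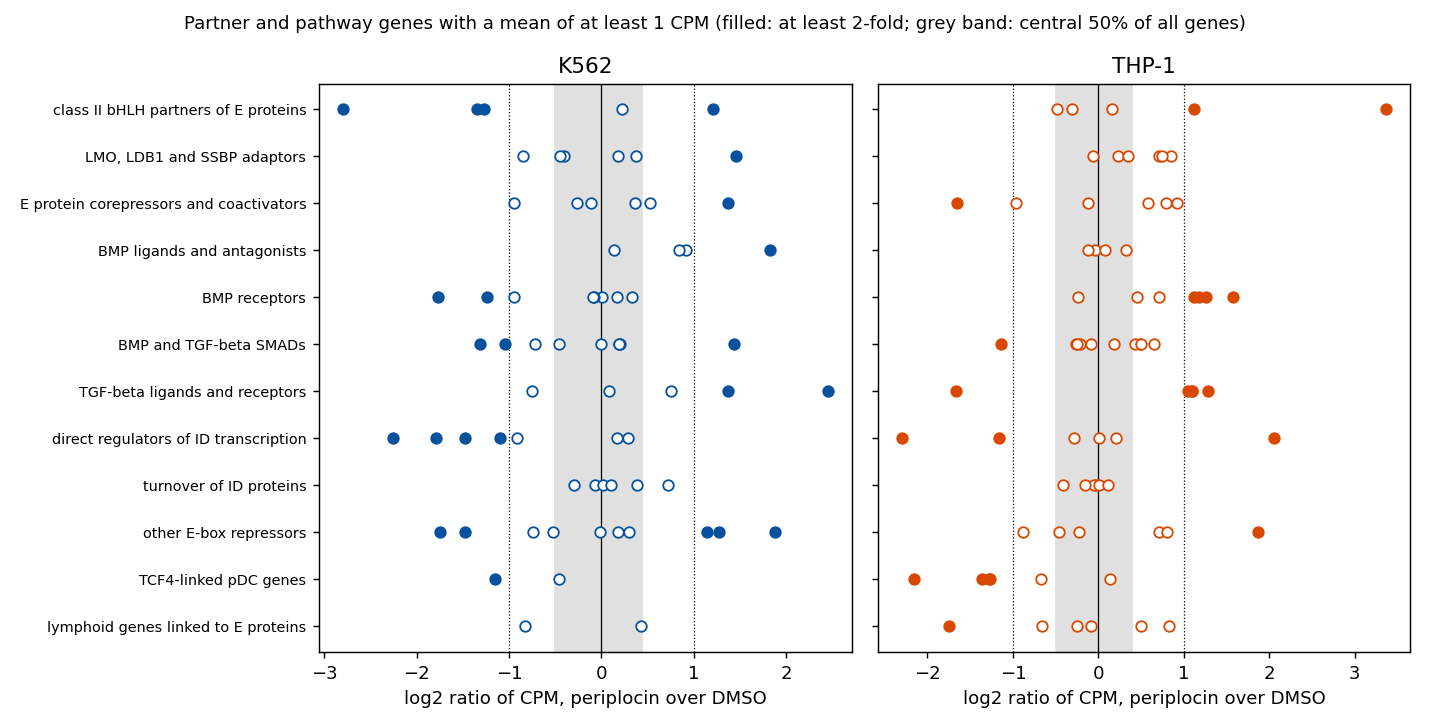
Log2 ratio of periplocin to DMSO for the genes of the 12 partner and pathway lists that passed a mean of 1 CPM, in K562 and THP-1. Each point is a gene, filled where called at 2-fold, and the grey band holds the central 50% of all genes. The 4 called receptor genes of BMP in THP-1 lie between 1.13 and 1.58, and the 4 called regulators of ID transcription in K562 lie left of -1.

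The genes nearest to these members in pattern over the 4 libraries were also listed. Likeness was the root mean square difference of log2(CPM + 1), each gene centred on its own mean, over 9790 genes whose mean reached 10 CPM. Nearest to ID2 were ACSS1 at 0.16, THAP2 at 0.35 and MAP2K3 at 0.63, the widest distances of any member. TCF12 had the closest neighbours, SMARCB1 at 0.02, GTF2F1 at 0.03 and DNASE1L1 at 0.03.

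For TCF3 the nearest genes were LYAR at 0.04, SMPD4 at 0.04 and PARPBP at 0.05, and for TCF4 they were TMOD2 at 0.06, FGD6 at 0.15 and CHRM3 at 0.17. MYRF at 0.04, VARS2 at 0.08 and PDE4DIP at 0.10 were nearest to ID1, and PCSK6 at 0.08, LAMA5 at 0.15 and SLC40A1 at 0.16 were nearest to ID3. With 4 libraries many genes share a pattern of this kind. The added 1 CPM also flattens the low THP-1 levels of ID1 and ID3, so their neighbours need not share their THP-1 ratios. PCSK6 had 176 and 95 counts in THP-1, where ID3 had 14 and 1.

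Library totals were between 16381149 and 20622694 counts, and the share on mitochondrially encoded genes was 2.07% to 5.62%. The labels of the lines were checked against markers. The 6 monocytic markers summed to 702 and 839 CPM in THP-1 and to 86.0 and 79.0 CPM in K562, and the erythroid sums are given above. Some monocytic markers were also present in K562. LYZ, CD33 and SPI1 had 752, 362 and 339 counts in K562 DMSO and 1062, 127 and 179 in K562 periplocin. MPO had 0 counts in both K562 libraries and was low in THP-1 too, with 43 and 14. GATA1 had 3 and 2 counts in THP-1. The 5 lymphoid markers summed to 1.61 to 9.99 CPM, with PAX5 at 122 and 148 counts in THP-1 and at 0 in K562.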

How the data were processed

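Poly-A selected RNA of K562 and THP-1 was sequenced from both ends in 1 library for each condition. The authors deposited 1 table of expected counts per gene, without normalization or pooling. The submitters' processing notes list HISAT2, StringTie 1.3.1 and hg38, and the annotation and counting settings are not given in the sources used here. Of the values, 87.4% to 88.3% are whole numbers, and 0 columns were left unused. Because estimated counts can share reads, intervals give a lower limit on the error.

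Expected counts were rounded and scaled by TMM over the 4 libraries (edgeR 4.0.16, R 4.3.3). Ratios are of scaled CPM without a prior count, with exact Clopper-Pearson intervals conditional on the sum of both counts (scipy 1.17.1), and differences between lines have normal intervals from the counts. No test was run. A call needed a mean of 1 CPM or more in the pair, a 2-fold ratio and an interval away from no change. Symbols came from a gene name table (19703 of 20348 identifiers), positions and lengths from GENCODE release 29 on GRCh38 (20118 matched), and promoters from RefSeq. Calls were checked on counts simulated with counting error alone, which cannot show how they would hold between replicate cultures. Figures were drawn with matplotlib 3.10.9.

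The members and lists were chosen with earlier results of these data known, and the lists were written from general knowledge. Named genes are all members, the called genes of each list with at least 5 CPM (at most 4 per line, by size), and the 3 genes nearest in pattern to each member. LYL1, LMO2 and the called list genes under 5 CPM were added later. Alternatives were TMM within the pair, DESeq2 1.42.0 size factors, total counts with and without mitochondrial genes, a prior count of 2, unrounded counts, other filters and thresholds, and another gene length.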

Additional observations from a re-analysis of the deposited data

Results flagged for a closer look

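For 3 genes the ratio of periplocin to DMSO lay on opposite sides of 0 in the lines, with both counting intervals away from 0. The share of all genes that meet this rule was not computed, so nothing is read from this number. The THP-1 minus K562 difference in log2 ratio was -4.31 for ID3, which rests on 14 counts and 1 count in THP-1, the latter under the floor of 3 counts. With a prior count of 2 the THP-1 log2 ratio of ID3 was -2.28 in place of -3.58. It was -1.41 for TCF3, from 0.65 in K562 and -0.76 in THP-1. For TCF12 it was -0.34, from 0.11 and -0.23, both small next to the spread of all genes. Each side has 1 library per condition, and these differences were not tested.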

How the results depend on the processing

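Within a line, no paired analysis was possible because each condition has 1 library, and for the same reason no replicate could be left out. A fit over both lines with the line as a block was not run, since the genes were chosen on this contrast. Of 84 recomputed log2 ratios of the 6 genes with counts, 82 stayed inside the counting interval and 0 changed sign. These numbers were largely set in advance. Unrounded counts changed none of the ratios of periplocin to DMSO, and TMM within the pair left those of K562 in place. Most other settings rescale all genes alike. With a prior count of 2 the ID3 ratio in THP-1 went from -3.58 to -2.28, inside its wide interval of -8.99 to -0.87. The ID2 ratio in K562 ranged from 3.63 to 3.69, that of TCF3 in K562 from 0.61 to 0.66, and that of TCF3 in THP-1 from -0.79 to -0.72. With total counts in place of TMM, the THP-1 to K562 log2 ratio in DMSO was -0.64 for TCF3 and 0.35 for TCF12, since total counts shift all genes between the lines. Per kilobase of longest transcript the ID part was 20.5% and 33.9% in K562 DMSO and periplocin and 24.5% and 32.3% in THP-1. Genes called numbered 2395 in K562 and 2327 in THP-1. At 1.5-fold they numbered 4731 and 4666, at 4-fold 552 and 512, and when the mean had to reach 5 CPM there were 1516 in THP-1. Other settings kept these numbers within 1.5 times. Depth limits ID1 and ID3 in THP-1 and ID4 in every library, which had from 0 to 25 counts.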
